A study of Mus musculus with 2 samples.

Results

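Transcripts of the cytosolic aminoacyl-tRNA synthetases and of the amino acid response were measured in superficial zone cells of mouse articular cartilage with and without Prg4. The set held 36 genes, chosen by symbol, of the 15719 genes named in the expression table, and all 36 were found. It comprised 20 genes for subunits of the cytosolic synthetases, 5 regulators and stress genes (Atf4, Ddit3, Trib3, Chac1 and Sesn2), 8 genes of amino acid and one-carbon synthesis (Asns, Phgdh, Psat1, Psph, Shmt2, Mthfd2, Aldh18a1 and Pycr1) and 3 amino acid transporter genes (Slc3a2, Slc7a5 and Slc7a1). No member differed by 2-fold between the libraries. Most synthetase genes were slightly above, and the transporter and proline synthesis genes slightly below, the shift shared by all genes.

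A synthetase joins an amino acid to its tRNA, which is the step that sets the meaning of each codon. When an amino acid runs short, uncharged tRNA activates the kinase GCN2, which phosphorylates the initiation factor eIF2alpha; protein synthesis slows as a whole while the mRNA of the transcription factor ATF4 is translated more. ATF4 then raises transcription of many synthetase, transporter and amino acid synthesis genes, and stress in the endoplasmic reticulum feeds into the same pathway through the kinase PERK. Chondrocytes secrete large amounts of collagen, which is rich in glycine and proline.

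The wild-type (WT) library and the Prg4KO library, 1 per genotype, both came from C57BL/6 mice at postnatal day 5. Prg4 encodes lubricin, the proteoglycan that lubricates the joint surface. The cells of both libraries had been released from knee-end cartilage of femur and tibia by trypsin and collagenase and seeded on fibronectin, so that each library is the RNA of all the cells collected. How many mice were pooled, their sex, the kind of Prg4 allele and the days in culture are not stated in the sources at hand.

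With 1 library per genotype no difference has a replicate check, and no test of genotype was made. Intervals printed below are 95% intervals that cover counting error only, and the spread between cultures is unknown. Expected counts, the estimated reads per gene, summed to 21619093 in WT and 21392574 in Prg4KO. The deposited Prg4KO values stood beside the wrong gene names beyond the top rows and were re-paired with the genes by row order and effective length. Every member's pair had a probability above the limit of 0.95, and the 36 member rows were displaced by -2 to 248 rows. For the 19 members with 1 transcript the effective length differed between the libraries by at most 0.0507%. Among members with several transcripts, 4 differed by more than 0.5%, and the largest difference, 3.37%, was that of Atf4. Prg4 had an FPKM (fragments per kilobase of transcript, scaled to library size) of 593 in WT and 0.10 in Prg4KO. Cartilage markers were high in both, with Col2a1 at 14594 and 15702 FPKM.

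Promoters of the amino acid response often carry the C/EBP-ATF response element, the site that ATF4 binds with a C/EBP partner, and its core was searched in the RefSeq windows of GRCm38.p6 that run from 250 bases before to 50 bases after each annotated start site. The core was spelled TGATGNAA, or TTNCATCA when it lies on the other strand, and no other motif was searched. Windows were at hand for 28 of the 36 members, leaving out Cars, Hars, Lars, Nars, Rars, Vars, Wars and Slc7a5. The core was in the window of 9 of these 28 genes (32.1%), against 3.97% of all 32851 windows and 2.34% of the 5976 genes tested here that had a window. Of the 9 genes, 5 were synthetases, and Aars alone held 2 copies. Of the 10 copies, 6 had C at the open base, 3 had A and 1 had T. The stretches below are shown because they are the copies counted here; each runs 5′ to 3′ on the gene's own strand with 20 bases on each side of the core, and capitals mark the core.
Aars, chr8:111033710-111033757, plus strand: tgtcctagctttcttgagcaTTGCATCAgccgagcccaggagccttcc
Aars, chr8:111033831-111033878, plus strand: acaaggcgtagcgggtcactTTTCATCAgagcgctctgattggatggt
Gars, chr6:55037951-55037998, plus strand: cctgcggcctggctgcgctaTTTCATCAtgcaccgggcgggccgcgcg
Iars, chr13:49682117-49682164, plus strand: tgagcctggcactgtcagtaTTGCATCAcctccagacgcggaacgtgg
Tars, chr15:11399646-11399693, minus strand: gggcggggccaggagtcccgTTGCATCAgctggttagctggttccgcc
Yars, chr4:129189886-129189933, plus strand: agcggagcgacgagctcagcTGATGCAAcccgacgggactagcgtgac
Trib3, chr2:152344019-152344066, minus strand: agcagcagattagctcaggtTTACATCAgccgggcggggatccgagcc
Asns, chr6:7693205-7693252, minus strand: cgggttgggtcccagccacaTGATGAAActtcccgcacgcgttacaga
Chac1, chr2:119351029-119351076, plus strand: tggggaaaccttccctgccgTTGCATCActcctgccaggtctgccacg
Pycr1, chr11:120643824-120643871, minus strand: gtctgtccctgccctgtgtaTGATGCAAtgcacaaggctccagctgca

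Most copies lay close to the start of transcription. A distance here is that of the first base of the core as printed, on the strand of the gene, from the start site, which counts as 0. In Asns the core began 23 bases before the start site and in Gars 30 bases before it. In Trib3 it began 14 bases after it. Only 3 of the 10 copies were more than 50 bases away, those of Chac1, of Pycr1 and the upstream copy of Aars. A match to these letters describes the sequence and does not show that a factor binds there.

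**Figure D1:**
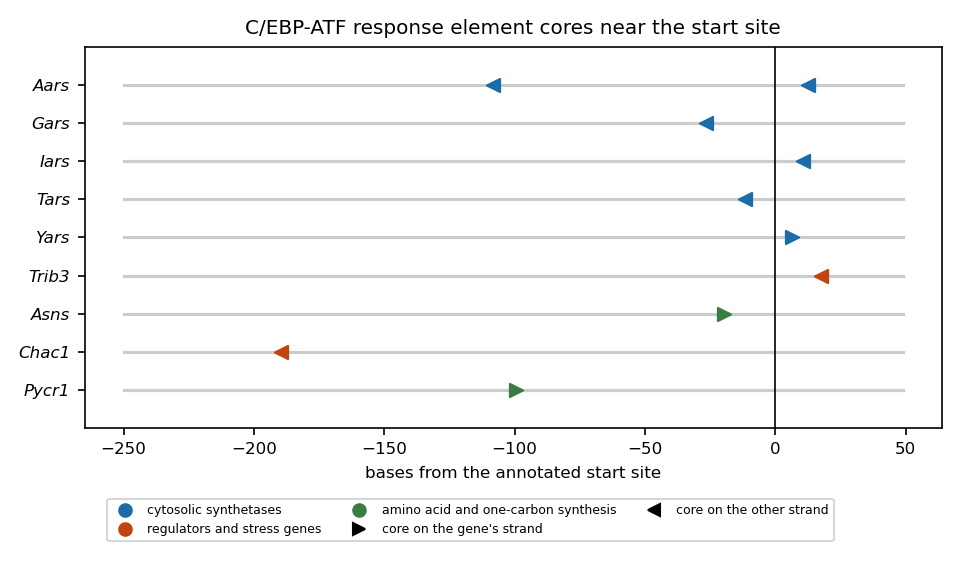
Position of each core within the window from 250 bases before to 49 bases after the annotated start site (0 on the x axis, in bases), for the 9 genes that hold one. Arrowheads point in the reading direction of the core, colours give the gene group, and 7 of the 10 copies lie within 50 bases of the start site.

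Among the synthetases, levels differed about as widely in both libraries. Gars, the glycyl-tRNA synthetase gene (chromosome 6, 55038001 to 55079504 in GRCm38), was the highest with 138 FPKM in WT and 158 in Prg4KO. Nars, for asparagine, followed with 118 and 144 FPKM. Lars, for leucine, was the lowest with 10.7 and 15.0 FPKM. The highest level was 13.0 times the lowest in WT and 10.6 times in Prg4KO. Between these ends stood Aars (alanine) at 86.5 and 92.1 FPKM, Sars (serine) at 75.5 and 80.7, and Kars (lysine) at 73.3 and 78.6. Summed over the 20 genes, the FPKM was 935 in WT and 1088 in Prg4KO.

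**Figure D2:**
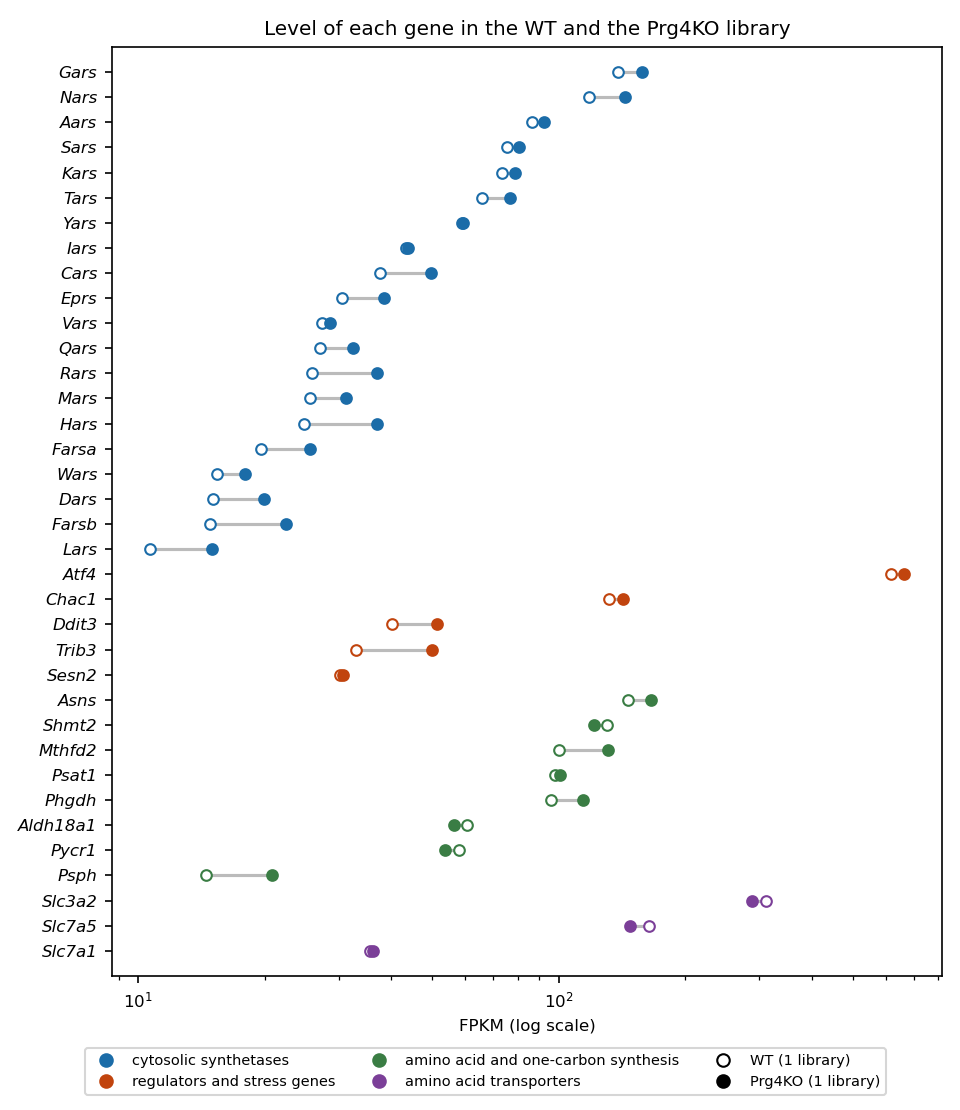
FPKM (log scale) of each of the 36 genes in the WT library (open points) and the Prg4KO library (filled points), 1 library each, grouped by role and ordered by the WT level. Atf4 stands highest at 616 and 664, and the filled point lies to the left for Shmt2, Aldh18a1, Pycr1, Slc3a2 and Slc7a5, and barely so for Yars.

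A gene was called past the limits when its log2 ratio of FPKM + 1, Prg4KO over WT, was at least 1 or at most -1 and its larger FPKM was at least 5. Of the 36 members, 0 passed, beside 0.57% of the 7365 genes tested (0.462% higher and 0.109% lower). Of the genes past the limits 81.0% were higher as deposited, and 39.4% to 47.1% were after rescaling of the libraries. At a limit of 1.5-fold (log2 ratio 0.585) 0 members passed either, beside 7.83% of the genes tested. That 0 depends on the pseudocount of 1, at which Trib3 had 0.583 and Farsb 0.565. At a pseudocount of 0.1 Trib3 (0.596) and Farsb (0.592) exceeded the 1.5-fold limit. The share of all genes past it at that pseudocount is not given here. All genes together were shifted, with a median log2 ratio of 0.15, so that group values below are also given relative to this all-gene median. The 36 members had a median log2 ratio of 0.20, which was 0.05 above it, and 20 of the 36 lay above the all-gene median. Of the members, 20 lay between the quartiles of all genes (-0.06 and 0.34), 11 above and 5 below.

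**Figure D3:**
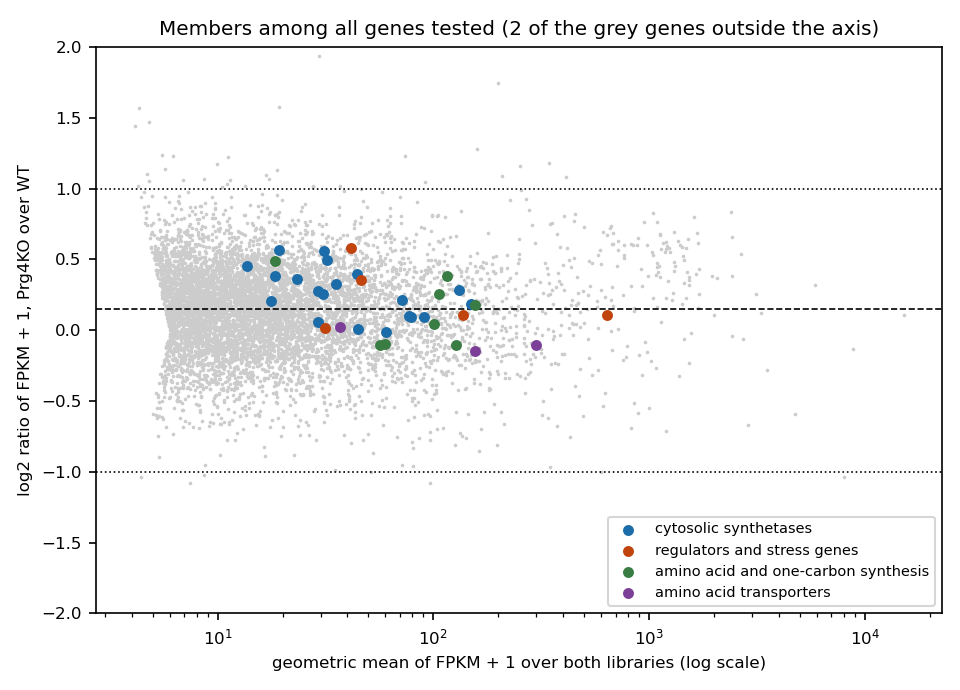
Log2 ratio of FPKM + 1, Prg4KO over WT, against the geometric mean of FPKM + 1 (log scale) for 7365 genes tested (grey) and the 36 members (coloured by role). Dotted lines mark the limits of -1 and 1, the dashed line the all-gene median of 0.15, and every member lies between the dotted lines; 2 grey genes are outside the axis.

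The synthetases leaned upward as a group. Of the 20 genes, 19 had a log2 ratio above 0 as deposited, where 69.0% of all genes tested did, and 14 exceeded the all-gene median. Their median log2 ratio was 0.27, or 0.12 above that of all genes. Across rescalings of the libraries 14 of 20 had a ratio above 0, and Aars, Iars, Kars, Sars and Vars turned to below 0. With the trend in transcript length and GC content removed, 16 of 20 lay above the all-gene median, by 0.13 in the group median. The count ratio per library total had a median of 1.12 over all genes tested. The whole counting interval lay above that value for 11 synthetases, below it for 5, and held it for 4. The shares of all genes tested with intervals above or below 1.12 are not given here. The counts of 11 and 5 therefore do not show a lean of the synthetases beyond that of other genes. Of all 36 members, 25 had an interval above 1, beside 52.4% of the genes tested, and 5 had one below 1, beside 18.9%. Together these are 30 members, beside 71.3% of the genes tested. Intervals narrow as counts rise, and the median WT FPKM was 50.7 for the members and 13.98 for all genes tested. These shares therefore do not show that the members differed more often than other genes.

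Farsb, Hars and Rars had the highest ratios of the synthetases. Farsb, the beta subunit of the phenylalanyl-tRNA synthetase, had an FPKM of 14.9 in WT and 22.5 in Prg4KO, from 700 and 1031 counts (count ratio 1.49, interval 1.35 to 1.64). Its partner Farsa, the alpha subunit, had 19.65 and 25.6 FPKM (count ratio 1.30, 1.19 to 1.43). The enzyme holds equal numbers of both subunits, and the level of Farsa per Farsb was 1.32 in WT and 1.14 in Prg4KO. Hars, for histidine, had 24.8 and 36.9 FPKM (count ratio 1.49, 1.38 to 1.61). Rars, for arginine, had 1201 counts in WT and 1699 in Prg4KO (count ratio 1.43, 1.33 to 1.54). For these 4 genes the counting interval lay above the all-gene median of 1.12.

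A middle group differed less. Cars, for cysteine, had an FPKM of 37.55 in WT and 49.7 in Prg4KO (log2 ratio 0.40). Dars, for aspartate, had 15.1 and 19.97 (0.38), and Lars, with 10.7 and 15.0, had a log2 ratio of 0.45. Eprs, whose product charges both glutamate and proline tRNAs, had 30.6 and 38.5 (0.32). These 4 lay above the all-gene median on the log2 scale by 0.17 to 0.30. Nearer to it were Nars (log2 ratio 0.28), Mars for methionine (25.65 and 31.3 FPKM, 0.28) and Qars for glutamine (27.1 and 32.5 FPKM, 0.26). Tars, for threonine, had 65.9 and 76.5 FPKM (0.21), Wars, for tryptophan, 15.4 and 17.9 (0.21), and Gars a log2 ratio of 0.19.

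Yars, Iars and Vars had nearly equal counts per library total. Yars, for tyrosine, had an FPKM of 59.3 in WT and 58.8 in Prg4KO (count ratio 0.993, interval 0.948 to 1.04). Iars, for isoleucine, had 43.4 and 43.8 FPKM (1.01, 0.967 to 1.05), and Vars, for valine, 27.5 and 28.7 FPKM (1.05, an interval that ends at 1.11). Their intervals hold 1, so that no difference from equal counts per total was detectable at this depth. All of these intervals lay wholly below the all-gene median of 1.12. Corrected for length and GC content, the log2 ratio of Vars was 0.33, above the all-gene median, and those of Yars and Iars were both 0.05. Kars, Aars and Sars followed at count ratios of 1.07 each. Yars, Iars and Aars are among the genes with a core printed above.

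**Figure D4:**
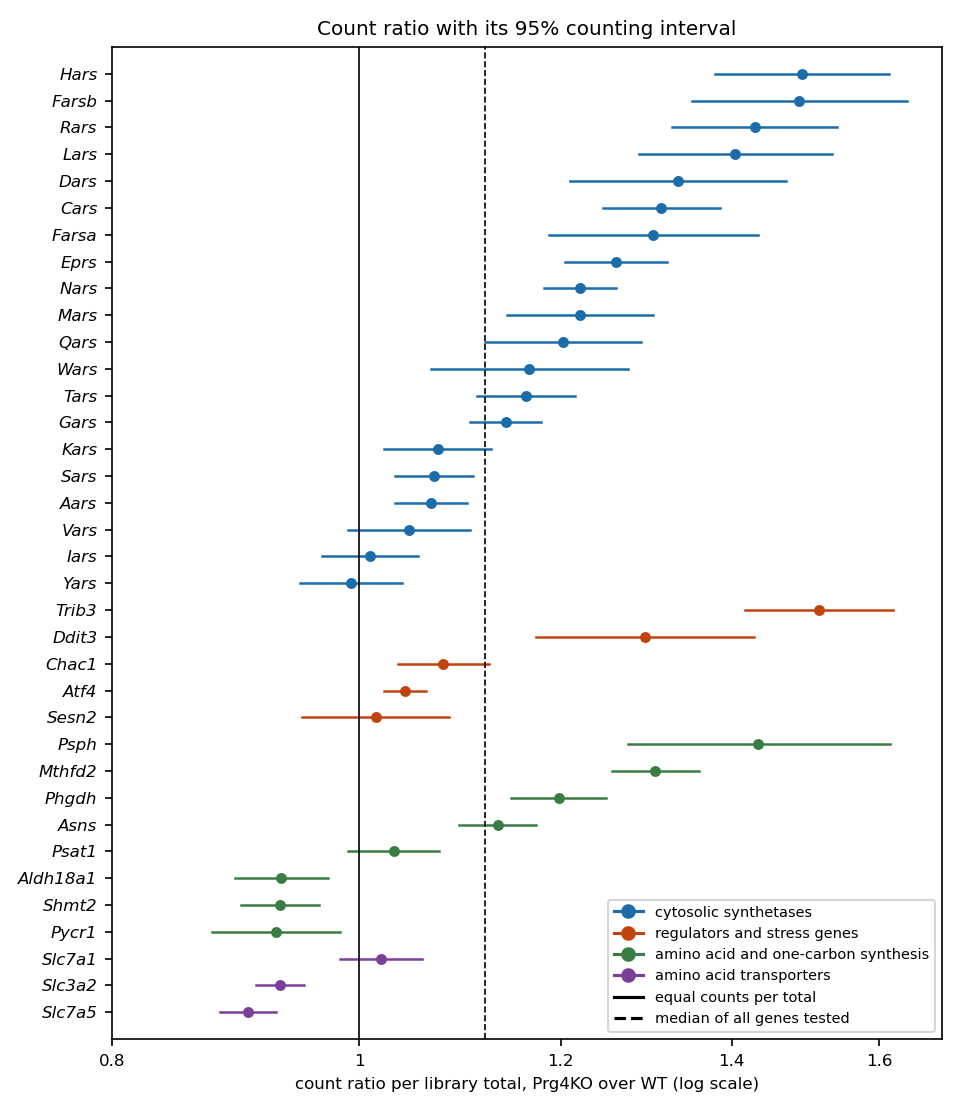
Count ratio per library total, Prg4KO over WT (log scale), for each of the 36 genes with its 95% counting interval (bars), by role. The solid line marks equal counts per total and the dashed line the median of all genes tested, 1.12; the intervals of Shmt2, Aldh18a1, Pycr1, Slc3a2 and Slc7a5 lie below 1.

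The synthetases fall into structural classes and into those inside and outside the multisynthetase complex. The 10 class I genes had a median log2 ratio of 0.27 and the 10 class II genes one of 0.25. The 8 genes whose products sit in the complex (Dars, Eprs, Iars, Kars, Lars, Mars, Qars and Rars) had WT levels of 10.7 to 73.3 FPKM and a median log2 ratio of 0.30. The 12 others ranged from 14.9 to 138 FPKM with a median of 0.21. Ratios within the complex ran from 0.01 to 0.50 and outside it from -0.01 to 0.56, so the groups overlapped. Of the scaffold proteins that hold the complex together, Aimp1 had 17.2 FPKM in WT and 32.3 in Prg4KO. Its 410 and 764 counts gave a ratio of 1.88 (interval 1.67 to 2.13). Eef1e1 had 27.5 and 37.7 FPKM (log2 ratio 0.44) and Aimp2 53.65 and 50.7 (-0.08). Of the 3 scaffold genes, Aimp1 passed the 1.5-fold limit, which 6.31% of all genes passed on the higher side, and none passed 2-fold.

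Mitochondrial synthetases that have a nuclear gene of their own were much lower than their cytosolic counterparts. Of 17 listed genes, 4 reached an FPKM of 5, and the highest, Fars2 and Yars2, had 8.43 and 7.58 in the WT library. In the Prg4KO library these genes had 8.91 and 9.18 FPKM. The 4 genes had a median log2 ratio of 0.19, or 0.04 above all genes, and 0 passed the limits.

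Among the regulators and stress genes, Atf4 was the most abundant and Trib3 had the highest ratio. Atf4 (chromosome 15, 80255184 to 80257545) ranked 114 of all genes by WT FPKM, with 616 FPKM in WT and 664 in Prg4KO. Its counts were 21102 and 21759 (ratio 1.04, interval 1.02 to 1.06), below the all-gene median of 1.12. Since ATF4 is controlled through translation, its mRNA level is not a measure of the protein. Trib3, a pseudokinase gene that ATF4 and CHOP induce and whose product restrains them, had 33.0 and 49.98 FPKM. Its 1462 and 2192 counts gave a ratio of 1.52 (1.42 to 1.62) and its log2 ratio of 0.58 exceeded that of 93.6% of genes tested. It was the highest of the 36, and stayed at 0.68 once ratios were corrected for length and GC content.

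The other stress genes did not share the value of Trib3. Ddit3, which encodes CHOP, had 40.1 FPKM in WT and 51.4 in Prg4KO, from 723 and 926 counts (ratio 1.29, interval 1.17 to 1.43). Chac1, which degrades glutathione, had 132 and 142 FPKM (ratio 1.08, 1.04 to 1.12). Sesn2, a leucine sensor that restrains the growth kinase mTORC1, had 30.2 and 30.7 FPKM (ratio 1.02, 0.9497 to 1.09). Chac1 and Sesn2 lay below the all-gene median and Ddit3 above it. Over the 5 genes the median log2 ratio was 0.11, or -0.04 relative to all genes, and 0.03 above them with the trend removed. Ddit3 and Mars overlap on opposite strands by 68 bases of exon. Their counts were not whole, while the sums were, at 2364 in WT and 2908 in Prg4KO. Aars shares 1326 exon bases with Exosc6 on the same strand, and Hars (Hars2), Farsb (Sgpp2), Yars (C77080) and Shmt2 (Ndufa4l2) overlap a gene on the opposite strand by 30 to 248 bases. The counts of Aars, Hars, Yars and Shmt2 were whole in both libraries, and those of Farsb were not. Whether counting used strand is not stated, so reads of these pairs may not be separable.

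The genes of amino acid synthesis divided by pathway. Serine is made from a glycolytic intermediate by the products of Phgdh, Psat1 and Psph in turn. Phgdh had 95.85 FPKM in WT and 115 in Prg4KO (count ratio 1.198, interval 1.15 to 1.25). Psat1 had 97.95 and 101 FPKM (1.03, 0.991 to 1.08). Psph was the least abundant step with 14.5 and 20.8 FPKM, from 484 and 687 counts (1.43, 1.28 to 1.61). Phgdh and Psph lay above the all-gene median and Psat1 below it.

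The mitochondrial one-carbon enzymes that use serine differed in sign. Shmt2, which splits serine into glycine and a one-carbon unit, had 131 FPKM in WT and 121 in Prg4KO (count ratio 0.931, interval 0.899 to 0.965). Mthfd2, which acts on that unit, had 100.4 and 131 FPKM (1.31, 1.26 to 1.36). Corrected for length and GC content, the log2 ratio of Shmt2 was 0.00 and that of Mthfd2 0.32. Asns, the asparagine synthetase gene and a standard marker of the response, had 147 and 166 FPKM (1.13, 1.09 to 1.17), close to the all-gene median of 1.12.

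Proline synthesis was lower in both of its measured steps. Aldh18a1, which makes the first intermediate from glutamate, had 60.55 FPKM in WT and 56.4 in Prg4KO (count ratio 0.932, interval 0.894 to 0.972). Pycr1, which makes proline itself in mitochondria, had 58.0 and 53.85 FPKM (0.928, 0.875 to 0.983). Their log2 ratios, -0.10 and -0.11, lay 0.25 and 0.26 below the all-gene median. With the trend removed they were 0.01 and -0.09. Across the 8 synthesis genes 4 lay above the all-gene median and 4 below, with a group median of -0.04 relative to all genes.

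The transporter genes lay below the all-gene median in 3 of 3 cases. Slc3a2 encodes the heavy chain and Slc7a5 the light chain of the exchanger that imports leucine and other large neutral amino acids. Slc3a2 had 311 FPKM in WT and 289 in Prg4KO, from 17340 and 15981 counts (ratio 0.931, interval 0.912 to 0.952). Slc7a5 had 164 and 148 FPKM from 12517 and 11204 counts (0.905, 0.882 to 0.928), which was the lowest ratio of the 36 genes. The level of Slc3a2 per Slc7a5 was 1.90 in WT and 1.95 in Prg4KO. Slc7a1, an importer of arginine and lysine, had 35.6 and 36.2 FPKM (1.02, 0.983 to 1.06). The group median was -0.25 relative to all genes and -0.13 with the trend removed. In absolute terms it was -0.10 as deposited and 0.02 with the trend removed, so its sign turns with that choice. Under each of 5 rescalings of the libraries the log2 ratios of Atf4, Chac1, Sesn2, Psat1 and Slc7a1 were below 0, and that of Asns was below 0 under 2 of them.

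The 9 genes with a printed core had ratios across much of the range of the members. Their log2 ratios ran from -0.11 (Pycr1) to 0.58 (Trib3) with a median of 0.11. The 19 members with a window and no core had a median of 0.26. The median WT level was 65.9 FPKM with the core and 40.1 without it.

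Related genes gave context for the pathway from the sensors down to other targets. Of the eIF2alpha kinases, Eif2ak3, which encodes PERK, had 17.3 FPKM in WT and 13.0 in Prg4KO (count ratio interval 0.692 to 0.802). Eif2ak4, which encodes GCN2, had 4.12 and 5.00 FPKM (interval 1.07 to 1.38). Eif2s1, the alpha subunit of eIF2 that both kinases phosphorylate, had 18.5 and 27.75 FPKM (log2 ratio 0.56), and Impact, an inhibitor of GCN2 activation, 4.04 and 6.38 (0.55). The haem-regulated kinase gene Eif2ak1 had 16.2 and 13.6 FPKM (-0.24). Ppp1r15a, whose product GADD34 reverses the phosphorylation, had 130 and 114 FPKM (-0.19). The list median over 8 genes was -0.28 relative to all genes, and -0.02 once the trend was removed, with 0 past the limits.

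Other target genes of ATF4 lay on both sides of the all-gene median. Of 22 genes 19 reached an FPKM of 5 and 0 passed the limits, with 11 above the all-gene median, 8 below and a median 0.04 above it. Cth, which makes cysteine, had 5.48 FPKM in WT and 10.3 in Prg4KO (log2 ratio 0.80). Cebpg, the C/EBP partner of ATF4, had 11.5 and 16.98 FPKM (0.52), and Ddit4, an inhibitor of mTORC1, 25.9 and 35.7 (0.45). The lowest were Slc1a4, a transporter of small neutral amino acids, at 43.96 and 36.2 FPKM (-0.27), Fgf21, a secreted stress hormone, at 8.30 and 6.76 (-0.26), and Atf5, a related transcription factor, at 172 and 155 (-0.15). The same core was in the window of 7 of the 17 genes of this list that had one. The share was 2.34% over all genes tested with a window, and this list was chosen as ATF4 targets. Of the other related lists, the core was in 0 of 3 scaffold, 0 of 14 mitochondrial synthetase and 0 of 7 eIF2alpha genes. It was in 1 of 13 endoplasmic reticulum genes, 1 of 10 further metabolism genes and 1 of 12 further transporter and mTORC1 sensing genes.

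Chaperone and stress genes of the endoplasmic reticulum were the lowest of the related lists by median except for the eIF2alpha list. Of 16 genes 0 lay above the all-gene median as deposited, and 1 did under the rescalings and with the trend removed. Their median stood at -0.27 against that of all genes, and at -0.33 with the trend removed. Calr, which encodes the calcium-binding chaperone calreticulin, had 1048 FPKM in WT and 649 in Prg4KO (log2 ratio -0.69). Manf, a secreted stress protein, had 100.2 and 70.3 FPKM (-0.51), and the chaperone gene Hyou1 30.5 and 21.9 (-0.46). At the other end stood Edem1, which acts in the degradation of misfolded glycoproteins, with 8.62 and 9.62 FPKM (0.14). Calr passed the 1.5-fold limit, which 1.52% of all genes passed on the lower side, and 0 passed 2-fold.

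Further genes of serine, one-carbon, proline and related metabolism centred on -0.02 relative to all genes (11 genes), with 0 past the limits. Among the higher ones was Got1, an aspartate aminotransferase, with 23.3 FPKM in WT and 32.6 in Prg4KO (log2 ratio 0.47). Glul, which makes glutamine, had 33.9 and 31.0 FPKM (-0.12). Of 14 further transporter and mTORC1 sensing genes 5 reached an FPKM of 5, with a median of -0.11 relative to all genes and 0 past the limits. Rragc, a subunit of the GTPases that signal amino acids to mTORC1, had 29.5 and 36.8 FPKM (0.31), and the glutamine transporter gene Slc38a1 16.0 and 12.6 (-0.33).

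**Figure D5:**
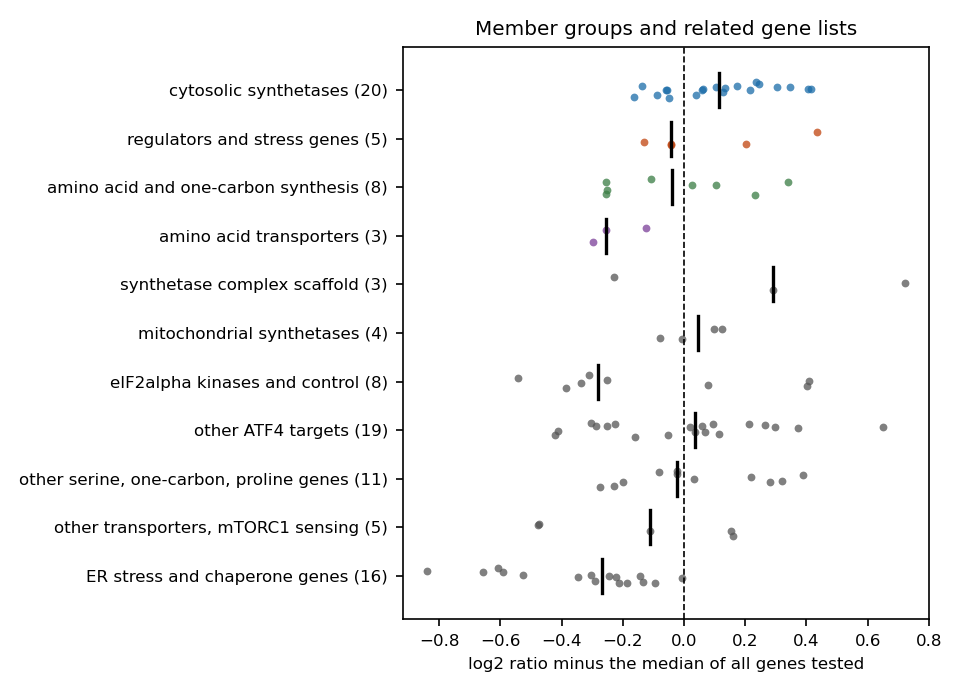
Log2 ratio of FPKM + 1, Prg4KO over WT, minus the median of all genes tested, for the genes of each member group (coloured) and each related list (grey) with a larger FPKM of at least 5. Each point is a gene, black bars are medians and brackets give the number of genes; the synthetase median lies at 0.12, the transporter median at -0.25 and the endoplasmic reticulum median at -0.27.

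Ratios of the members were also set against transcript properties. Spearman's rho between log2 ratio and transcript length was -0.33 across the 36 members and -0.30 across all 7365 genes tested. With GC content it was -0.36 across the members and -0.35 across 7353 genes. With the mean FPKM of both libraries it was -0.48 across the members and -0.06 across all genes. These are descriptions across genes of the same 2 libraries and carry no test. A trend in length and GC content held 26.7% of the variance of log2 ratios over 6686 genes.

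Of the superficial zone markers 7 of 8 were lower, with sums of 1237 FPKM in WT and 441 in Prg4KO, of which Prg4 itself made up 593 and 0.10. The chondrocyte markers were higher in 8 of 9 cases and the hypertrophic ones in 5 of 5, with sums of 497 and 805 FPKM for the latter. As deposited, 69.0% of all genes tested had a log2 ratio above 0. Above the all-gene median lay 7 of the 9 chondrocyte and 5 of the 5 hypertrophic markers, and below it 7 of the 8 superficial zone ones. The log2 ratio of Col2a1 turned to below 0 under 5 rescalings of the libraries, and that of Sox9 under 2. With the length and GC trend removed, that of Acan turned to 0.02. Markers of other cells also differed between the libraries. The 8 fibroblast and tendon markers summed to 19008 FPKM in WT and 11046 in Prg4KO, with 6 of the 7 that reached an FPKM of 5 lower. Of these sums Col1a1 alone made up 11470 and 5593 FPKM. The 4 erythroid markers summed to 1241 and 2095 FPKM, all 3 that reached an FPKM of 5 being higher. Over 5 of 6 osteoclast markers the sums were 165 and 233 FPKM, with Acp5 and Mmp9 past the 2-fold limit on the higher side. Matn3, Panx3 and Spp1 of the other marker lists also passed it on that side, and Prg4 and Col1a1 on the lower side. Over 6 macrophage markers the sums were 62.1 and 80.5 FPKM, and over 5 endothelial markers 70.5 and 67.0. The 4 skeletal muscle markers in the table summed to 9.01 and 11.5 FPKM. The deposited FPKM values include no 0 for any gene. Dcstamp and Myh3 were not among the genes named with a WT value, so they have no ratio here. The part of these cells in the values of the members was not tested. Fewer cells of a type and less RNA per cell cannot be told apart in such libraries.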

How the data were processed

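The deposited table holds, per the file headers, expected counts and FPKM for each library with 2 decimals, and RSEM, HISAT2, Bowtie2 and mm10 are named, without versions or roles, in the submitters' processing notes. Strand use and read length are not stated in the sources at hand. Expected counts were estimated by the authors, and FPKM was scaled by the authors for effective length and library size, which count and FPKM together recover per gene.

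The table named 15719 WT genes and held 15973 Prg4KO values. Log2 FPKM correlated across genes at r = 0.96 over the first 20 rows and 0.0851 over the later ones as deposited. The Prg4KO values were re-paired with a pair hidden Markov model of 3 states on row order and effective length (numba 0.67.0), without comparing levels. Pairs with a probability of at least 0.95 covered 14893 genes (94.7%), and their log2 FPKM correlated at r = 0.981.

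Genes that reached an FPKM of 5 in either library were compared as log2 ratios at a pseudocount of 1. Count ratios are per library total with exact binomial (Clopper-Pearson) 95% intervals (scipy 1.17.1). The members, gene lists and the pairing were chosen with earlier results of these data known. Named related genes are at most the 3 highest and 3 lowest of each list, and some are not reported here. TMM factors came from edgeR 4.0.16 on counts rounded to whole numbers. Transcript GC content was read from GENCODE M21 and promoters from RefSeq GRCm38.p6, the build that mm10 denotes. Signature motifs in the synthetase proteins had been planned, and protein sequences were not used here. Columns of other samples numbered 0.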

Additional observations from a re-analysis of the deposited data

How the results depend on the processing

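Changing the pseudocount, the filter on low values or the pairing probability kept the median log2 ratio of every member group close to the reported one, and 0 members passed the 2-fold limit in any setting. Rescaling the libraries moved the group medians, given here in the order members, synthetases, regulators, synthesis genes and transporters. They were 0.039, 0.108, -0.054, -0.051 and -0.266 with TMM-scaled counts, and 0.020, 0.089, -0.074, -0.071 and -0.286 at a common median. At a common sum they were 0.057, 0.126, -0.037, -0.033 and -0.248, and at a common upper quartile 0.045, 0.114, -0.049, -0.045 and -0.261. Without the 20 most abundant genes they were 0.022, 0.091, -0.072, -0.068 and -0.284. Corrected for length and GC content, the synthesis genes had 0.046 and the transporters 0.017. The cause was not tested. Relative to the all-gene median, the synthetases stayed above (0.11 to 0.17) and the transporters below (-0.26 to -0.13) in every setting. The regulators ran from -0.05 to 0.03 and the synthesis genes from -0.10 to 0.01, so their side turned. Medians of the related lists under these settings were added after seeing the data.

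No paired analysis was possible because each genotype has 1 library, and no replicate was left out for the same reason.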
